A study of Mus musculus with 6 samples.

Results

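The genes described here are 6 keratins of liver epithelium, *Krt8*, *Krt18*, *Krt7*, *Krt19*, *Krt20* and *Krt23*, out of 25403 genes listed for mouse liver. They were chosen by name with earlier results of these data known: *Krt20* was picked because it was among the genes with the largest increase in knockout livers, *Krt8* and *Krt18* as keratins of hepatocytes, and *Krt7*, *Krt19* and *Krt23* as keratins of ducts or of stressed epithelium. Their differences between genotypes are therefore given as a description, and nothing is read from their test results. Each symbol had 1 row in the table, and all 6 genes were counted.

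Poly(A) mRNA was sequenced from the livers of 3 wild-type C57BL6/J mice (WT) and of 3 mice lacking *Themis* in the whole body (Themis-KO). All mice, WT included, had been fed a MASH diet (fat giving 40% of energy, fructose 20%, with 2% cholesterol added) for 3 months, starting at 10 to 12 weeks of age, so no liver on a normal diet enters the comparison. MASH, metabolic dysfunction-associated steatohepatitis, is a fatty liver disease with inflammation and hepatocyte injury. *Themis* is a signaling adaptor best known from T cells, and a whole-body knockout removes it from lymphocytes and hepatocytes alike. A library held 20679642 to 25649767 estimated counts, and levels are given as CPM, counts scaled to a common library size by the TMM method. A piece of whole liver was sequenced, so a change in the number of cells of a type and a change in RNA per cell cannot be told apart.

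Neither the level of *Themis* nor that of 1 further pair of transcripts separated the 6 livers by their labels. *Themis* itself stood at 8.07, 25.6 and 12.0 CPM in the livers labelled WT and at 8.63, 7.74 and 9.97 CPM in those labelled Themis-KO, and the groups overlapped (log2 fold change −0.79, SE 0.38, edgeR quasi-likelihood adjusted p = 0.199). The counts do not tell which exons the reads came from, so a transcript lacking the deleted part would still be counted, and this check says nothing about the protein. *Gm28438*, a nuclear copy of mitochondrial sequence named here after its values were seen, took 96.6% and 96.8% of the counts it shares with *mt-Nd3* in WT livers 1 and 2 but 2.20% to 3.26% in the other 4 livers, which include WT liver 3. Each keratin difference is therefore also given with WT liver 3 as the only WT liver.

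Keratins are the intermediate filament proteins of epithelial cells. Type I keratins (here *Krt18*, *Krt19*, *Krt20* and *Krt23*) assemble with type II keratins (*Krt7* and *Krt8*) as heterodimers, and neither type forms filaments alone. Adult hepatocytes contain almost only the *Krt8* and *Krt18* pair, which protects them against mechanical and toxic stress and which, with p62, builds the Mallory-Denk bodies of steatohepatitis. Cholangiocytes, the cells lining bile ducts, add *Krt7* and *Krt19*. *Krt20* is best known from intestinal and urothelial surface cells, and *Krt23* is a less studied type I keratin described in stressed liver and in tumors.

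Coordinates refer to GRCm38. On chromosome 15, *Krt8* (ENSMUSG00000049382, chr15:101996698-102004482, reverse strand, 9 exons) and *Krt18* (ENSMUSG00000023043, chr15:102028180-102032027, forward strand, 7 exons) lie head to head with their starts 23.7 kb apart. The unusual feature of *Krt18* is that it is a type I gene within the type II cluster. *Krt7* (ENSMUSG00000023039, chr15:101411043-101430313, forward strand) is on the same chromosome. The other 3 type I genes are on chromosome 11, where *Krt20* (ENSMUSG00000035775, chr11:99428403-99438150, reverse strand, 8 exons) and *Krt23* (ENSMUSG00000006777, chr11:99477974-99493137, reverse strand, 8 exons) have their starts 55.0 kb apart and *Krt19* (ENSMUSG00000020911, chr11:100140810-100148665, reverse strand) lies farther along.

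The sequences below, 5′ to 3′ from RefSeq (GRCm38.p6), lie just before the start of each gene and are shown for the pair with the most alike profile, *Krt8* and *Krt18*, and for the chromosome 11 neighbors with opposite differences, *Krt20* and *Krt23*. They stop before the first base of either the RefSeq or the GENCODE transcript. The windows are chr15:102004483-102004592 on the reverse strand for *Krt8*, chr15:102028030-102028179 on the forward strand for *Krt18*, chr11:99438154-99438303 on the reverse strand for *Krt20* and chr11:99493138-99493287 on the reverse strand for *Krt23*. Capitals mark matches to a TATA box (TATAAA, gene strand) or to the TEAD motif (GGAATG, both strands).
*Krt8*: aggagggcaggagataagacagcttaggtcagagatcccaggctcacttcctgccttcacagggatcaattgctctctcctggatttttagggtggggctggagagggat
*Krt18*: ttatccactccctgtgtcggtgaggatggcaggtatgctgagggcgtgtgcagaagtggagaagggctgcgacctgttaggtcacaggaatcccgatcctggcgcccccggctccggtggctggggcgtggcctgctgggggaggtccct
*Krt20*: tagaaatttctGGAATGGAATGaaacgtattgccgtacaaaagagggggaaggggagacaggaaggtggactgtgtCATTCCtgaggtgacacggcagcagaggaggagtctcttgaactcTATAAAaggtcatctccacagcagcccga
*Krt23*: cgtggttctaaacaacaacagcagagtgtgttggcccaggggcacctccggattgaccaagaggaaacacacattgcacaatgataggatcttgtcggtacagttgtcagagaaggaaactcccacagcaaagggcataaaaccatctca

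Promoters of 5 of the 6 genes were in the RefSeq table. In the 250 bases before the RefSeq start, 4 motifs were searched. TATAAA on the gene strand was in 7.60% of all 32817 promoters of the table, the AP-1 motif TGANTCA on either strand in 6.75%, the Sp1 motif GGGCGG on either strand in 32.7% and GGAATG on either strand in 12.6%. *Krt20* held TATAAA from base 29 to base 24 before its start and GGAATG in 3 places beginning 139, 134 and 74 bases before it, of which the first 2 share 1 base. *Krt7* held 4 copies of GGGCGG, beginning 141, 128, 56 and 24 bases before its start. These letters were in no other window of the 5, which describes the sequence and says nothing about binding.

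*Krt8* and *Krt18* made up nearly all keratin mRNA in every liver, and both were higher in each Themis-KO liver than in any WT liver. *Krt8*, the type II keratin of hepatocytes, was at 415, 481 and 558 CPM in WT livers and at 1529, 1420 and 712 CPM in Themis-KO livers. *Krt18*, its type I partner, was at 234, 243 and 291 CPM in WT and at 720, 689 and 356 CPM in Themis-KO. Themis-KO livers 1 and 2 stood far above WT for both genes, while Themis-KO liver 3 lay just above the highest WT liver, WT 3, with 1.28 times its *Krt8* level and 1.23 times its *Krt18* level. The log2 fold change was 1.33 (SE 0.27) for *Krt8* and 1.20 (SE 0.25) for *Krt18*. With WT liver 3 as the only WT liver these were 1.11 and 1.00, and they ranged from 1.13 to 1.59 and from 1.02 to 1.44 when any 1 liver was left out.

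**Figure D1:**
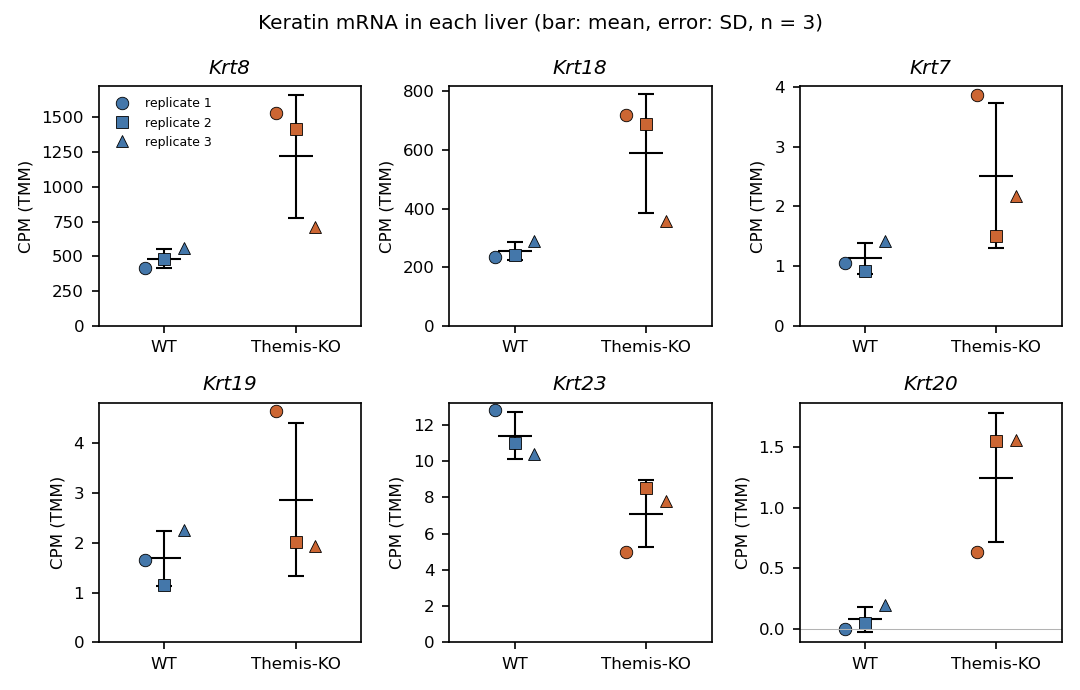
CPM of each keratin (vertical axis, scaled by TMM, a separate scale per gene) in WT and Themis-KO livers; points are livers, marked by replicate number, horizontal bars are means and error bars are SD (n = 3). Themis-KO liver 3 sits near WT for Krt8 and Krt18 (712 and 356 CPM). Themis-KO liver 1 is highest for Krt7 and Krt19 (3.87 and 4.63 CPM), as it is for Krt8 and Krt18. Krt23 is lower in all 3 Themis-KO livers.

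The *Krt8* and *Krt18* share of all keratin CPM was 97.3% to 98.0% in WT livers and 98.4% to 99.2% in Themis-KO livers. The sum over all listed keratins was 667, 740 and 866 CPM in WT and 2267, 2125 and 1086 CPM in Themis-KO. The higher keratin mRNA of Themis-KO livers was thus almost wholly that of these 2 genes. A processed copy, *Krt8-ps*, named after its values were seen, received counts equal to 0.109% to 0.191% of those of *Krt8*. *Krt8* also overlaps the long noncoding gene *Gm36026*, which had 27 counts in all libraries together, and *Krt7* overlaps the antisense gene *Gm671*, which had 1.

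Keratin proteins pair in equal amounts, so the balance of the hepatocyte pair was compared per length. Divided by transcript length (1958 bp for *Krt8* and 1437 bp for *Krt18*), the level of *Krt8* was 1.30, 1.45 and 1.41 times that of *Krt18* in WT livers and 1.56, 1.51 and 1.47 times in Themis-KO livers. The groups were narrowly apart, with WT liver 2 at 1.45 and Themis-KO liver 3 at 1.47. The means were 1.39 ± 0.077 and 1.51 ± 0.046 (SD, n = 3), and the difference was not tested. Across groups the ratio changed far less than either gene's level. In log2 CPM over the 6 livers the profiles of both genes had a Pearson r of 0.998, a description of points that include both genotypes.

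*Krt7* and *Krt19*, the keratins of bile ducts, were at low levels, and both were highest in Themis-KO liver 1. *Krt7* was at 1.06, 0.912 and 1.42 CPM in WT livers and at 3.87, 1.51 and 2.17 CPM in Themis-KO livers. The groups did not overlap, but WT liver 3 and Themis-KO liver 2 were close. *Krt19* was at 1.65, 1.15 and 2.25 CPM in WT and at 4.63, 2.02 and 1.94 CPM in Themis-KO, so Themis-KO livers 2 and 3 lay within the WT range. The log2 fold change was 1.14 (SE 0.38) for *Krt7* and 0.76 (SE 0.41) for *Krt19*. Without Themis-KO liver 1 these values were 0.69 and 0.22, and with WT liver 3 as the only WT liver 0.80 and 0.33. These genes rested on few reads, 19 to 91 counts for *Krt7* and 24 to 109 for *Krt19* in a library.

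*Krt20* was almost undetected in WT livers and was low but present in every Themis-KO liver. It had 0, 1 and 5 counts in WT libraries and 15, 36 and 33 counts in Themis-KO libraries, or 0, 0.048 and 0.197 CPM against 0.637, 1.55 and 1.56 CPM. A count of 0 allows up to 3 counts in that library. Unlike the other keratins with higher levels, its lowest Themis-KO liver was liver 1, and liver 3 was as high as liver 2. The log2 fold change was 3.75 (SE 0.72). The ratio of summed counts, scaled by library size, was 14.0. The fold depended most on WT liver 3: without it the log2 fold change was 5.42, and with it as the only WT liver 2.61. *Krt20* passed the filter on low counts only through its Themis-KO livers, since no WT liver reached the filter's 0.448 CPM.

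*Krt23* was the only gene of the 6 at a lower level in Themis-KO livers. It was at 12.8, 11.0 and 10.4 CPM in WT livers and at 5.01, 8.52 and 7.79 CPM in Themis-KO livers. All Themis-KO livers lay below all WT livers, and liver 1 was lowest. The log2 fold change was −0.68 (SE 0.21), and it was −0.49 without Themis-KO liver 1 and −0.56 with WT liver 3 as the only WT liver. Over the 6 livers its profile ran opposite to that of *Krt7* (Pearson r = −0.957 in log2 CPM, a description).

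**Figure D2:**
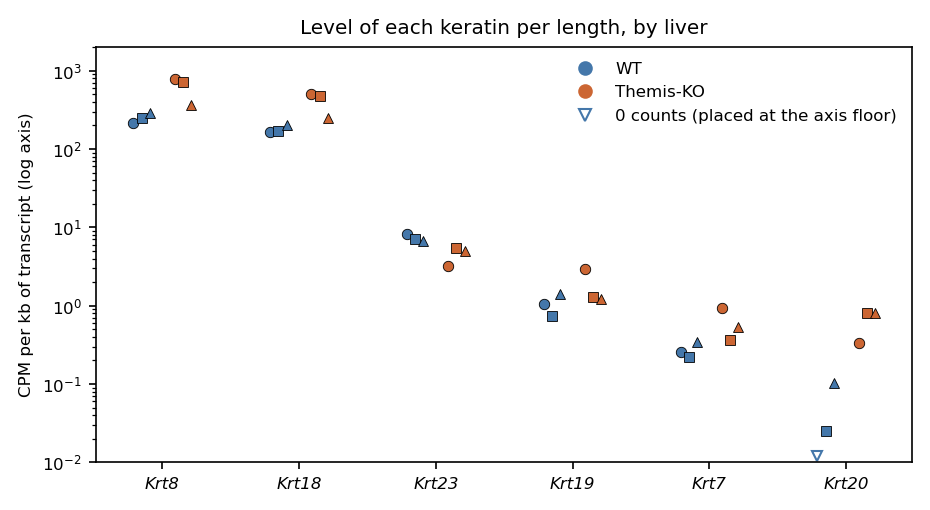
CPM per kb of transcript (vertical axis, log scale) of the 6 keratins in each liver, with WT in blue, Themis-KO in orange and marker shapes for replicates 1 to 3; the open triangle is a library with 0 counts. Krt8 and Krt18 lie far above the other 4 genes, and Krt20 moves from the lowest place in WT livers to the level of Krt7 in Themis-KO livers.

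Per length, the order of levels in WT livers was *Krt8* (248 ± 36.5 CPM per kb), *Krt18* (178 ± 21.1), *Krt23* (7.29 ± 0.820), *Krt19* (1.07 ± 0.349), *Krt7* (0.276 ± 0.0641) and *Krt20* (0.0424 ± 0.0534; SD, n = 3). Each gene's WT range was clear of its neighbor's. In Themis-KO livers *Krt8* was at 623 ± 226 CPM per kb and *Krt18* at 409 ± 140, and their ranges overlapped across livers although *Krt8* was the higher in each. *Krt23* (4.54 ± 1.18) and *Krt19* (1.82 ± 0.972) came next, with ranges that did not overlap. *Krt20* (0.648 ± 0.274) and *Krt7* (0.614 ± 0.297) had overlapping ranges. *Krt7* has coding transcripts of 642 to 4094 bp and was scaled with 4094 bp, so its place among the low keratins depends on that choice.

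Of the 6 keratins, 3 (*Krt8*, *Krt18* and *Krt20*) had an adjusted p under 0.05 in the edgeR fit, all at a higher level in Themis-KO. Over the 14496 genes tested, 9.11% were called in either direction, 4.97% as higher (721 genes) and 4.14% as lower (600 genes), while scaling by total counts alone gave 1449 higher and 387 lower. *Krt20* was tested only because its Themis-KO livers passed the filter. Without overlap between groups, 4 of the 6 were higher and 1 lower, beside 17.7% and 16.9% of the genes tested. Since the genes were chosen on this contrast, nothing is read from either count. Calls were sensitive to single livers: the whole-table count was 1321 with all 6 livers, between 20 and 850 when any liver other than Themis-KO 3 was left out, and 4267 without Themis-KO 3, while the keratin count was 0 or 1 in the former fits and 4 in the latter. With WT liver 3 as the only WT liver 9 genes and no keratin were called (1254 genes and 2 keratins at an unadjusted p under 0.05).

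**Figure D3:**
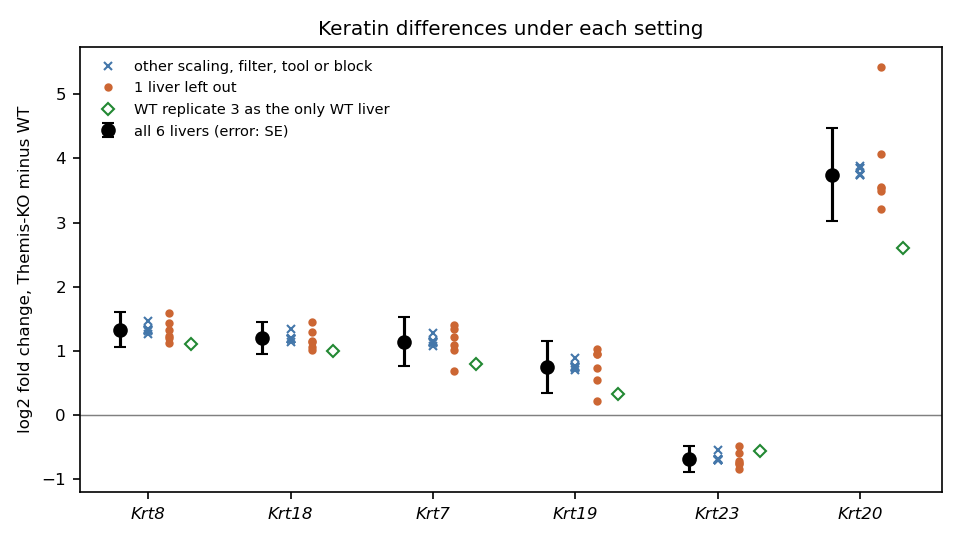
log2 fold change of each keratin, Themis-KO minus WT (vertical axis), with all 6 livers (black, error bar SE) and under other scalings, filters, DESeq2 or a replicate block (blue crosses), with 1 liver left out (orange) or with WT replicate 3 as the only WT liver (green). No value changes sign; Krt20 spreads most, from 2.61 to 5.42, and Krt19 comes nearest to 0, at 0.22.

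Among the other 12 keratins listed, none was called by edgeR (1 at an unadjusted p under 0.05 and 1 by DESeq2), and only 3 passed the filter. *Krt80*, a type II keratin of the skin and of other epithelia, was at 0.367, 0.624 and 0.671 CPM in WT livers and at 2.12, 1.25 and 1.13 CPM in Themis-KO livers, without overlap (log2 fold change 1.43, SE 0.37, edgeR adjusted p = 0.0516). Like *Krt7*, *Krt19*, *Krt8* and *Krt18* it was highest in Themis-KO liver 1. *Krt10*, a keratin of the upper epidermis, was at 1.51 to 1.66 CPM in WT and at 0.946 to 1.32 CPM in Themis-KO (log2 fold change −0.45, SE 0.23, edgeR adjusted p = 0.231). The other 9 were under 0.5 CPM in every liver, among them *Krt5*, *Krt14* and *Krt17*, keratins of basal and regenerating epithelium, which are mentioned with their values already known.

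The livers were next compared for the markers of the cells these keratins come from. Of 14 cholangiocyte markers 12 were tested; 2 rose, beside 4.97% of all genes tested, none fell, and the list's median log2 fold change was 0.90, beside 0.0095 over all genes tested. The tested markers include *Cldn4*, which passed the filter only through Themis-KO livers. *Spp1*, which encodes osteopontin and which injured hepatocytes and macrophages express too, rose from 137, 180 and 163 CPM to 571, 367 and 366 CPM (log2 fold change 1.44, SE 0.20, edgeR adjusted p = 0.0131). *Cldn7*, a tight junction protein, rose from 0.963, 1.01 and 0.829 CPM to 3.31, 1.72 and 2.08 CPM (log2 fold change 1.35, SE 0.31, edgeR adjusted p = 0.0399). Both genes were highest in Themis-KO liver 1, as were *Krt7* and *Krt19*. *Krt8* and *Krt18* were highest in that liver too, so this trait is not particular to duct genes. *Spp1* stayed called in the 4 fits without WT liver 3 or without any 1 of the Themis-KO livers, and *Cldn7* only without Themis-KO liver 3. *Bicc1*, an RNA-binding protein of tubular epithelia, was at 9.72, 7.87 and 8.60 CPM in WT and at 20.1, 11.9 and 12.5 CPM in Themis-KO (log2 fold change 0.76, SE 0.21, edgeR adjusted p = 0.0626).

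The summed level of the cholangiocyte list without *Spp1* was 55.0, 51.0 and 53.5 CPM in WT livers and 109, 61.8 and 72.6 CPM in Themis-KO livers. This is the order of Themis-KO livers seen for *Krt7* but not for *Krt19*, which was slightly lower in liver 3 than in liver 2. Of the 12 tested markers 7, *Cldn4* among them, were higher without overlap between groups, beside 17.7% of all genes tested. The other 2 of the 14 stayed under 0.5 CPM in every liver. The paper estimated cell type proportions from its bulk RNA-seq data and reported higher proportions of cholangiocytes, macrophages and stellate cells. The part of duct cell number in the levels of *Krt7* and *Krt19* was not tested here.

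Of 12 hepatocyte markers, all tested, 3 fell, beside 4.14% of all genes tested, and none rose, with a median log2 fold change of −0.31. *Cyp2e1*, a cytochrome P450 of pericentral hepatocytes, fell from 6958, 8070 and 4818 CPM to 3153, 2641 and 3692 CPM (log2 fold change −1.07, SE 0.21, edgeR adjusted p = 0.0304). *Serpina1c*, a secreted antiprotease, fell from 4596, 3084 and 3390 CPM to 1982, 1876 and 1547 CPM (log2 fold change −1.03, SE 0.17, edgeR adjusted p = 0.0226). *Fah*, the last enzyme of tyrosine breakdown, fell from 500, 479 and 444 CPM to 304, 309 and 344 CPM (log2 fold change −0.57, SE 0.09, edgeR adjusted p = 0.0220). *Krt8* and *Krt18*, which hepatocytes share with duct cells and other epithelia, differed in the opposite direction. All 3 falls were called without WT liver 3 and without Themis-KO liver 3, and none of them when any other liver was left out. Albumin (*Alb*) was at 39776 to 43024 CPM in WT and at 33597 to 37327 CPM in Themis-KO (log2 fold change −0.26, SE 0.12, edgeR adjusted p = 0.185), and *Ahsg*, which encodes fetuin-A, at 3876 to 5668 CPM in WT and 3716 to 5651 CPM in Themis-KO. The list's summed level was 67286 to 73231 CPM in WT livers and 53411 to 57236 CPM in Themis-KO livers.

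Markers of other epithelia that use these keratins were mostly low, but *Krt7* and *Krt19* were low as well. *Krt7* was at 0.912 to 1.42 CPM in WT and 1.51 to 3.87 CPM in Themis-KO. *Krt19* was at 1.15 to 2.25 CPM in WT and 1.94 to 4.63 CPM in Themis-KO. Mesothelium, the capsule's lining, expresses *Krt7*, *Krt8*, *Krt18* and *Krt19*; 3 of its 9 markers were tested and none was called (none at an unadjusted p under 0.05 and none by DESeq2). The sum over the 9 was 2.06 to 4.26 CPM in WT and 3.50 to 4.89 CPM in Themis-KO. The most abundant of them was *Gpm6a*, a membrane glycoprotein also known from brain, at 1.28 to 2.37 CPM in WT and 1.89 to 2.69 CPM in Themis-KO. *Wt1*, a transcription factor that defines mesothelium, was at 0.240 to 0.513 CPM in WT and 0.425 to 0.989 CPM in Themis-KO. The part of mesothelium in the keratin levels was not tested.

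*Krt20* is a marker of gut and urothelial surface cells, and 8 of 12 markers of those epithelia were listed. Of the 3 tested none was called by edgeR (2 at an unadjusted p under 0.05 and 1 by DESeq2). The 2 most abundant were present in every liver: *Fabp2*, an intestinal fatty acid binding protein, was at 117 to 139 CPM in WT and 88.8 to 112 CPM in Themis-KO, and *Lgals4*, a galectin, at 25.2 to 28.9 CPM and 17.6 to 27.0 CPM. The intestinal regulator *Cdx2* had at most 0.043 CPM and the intestinal mucin *Muc2* at most 0.142 CPM in any liver, and the urothelial gene *Upk1a* at most 0.127 CPM. The untested intestinal cadherin *Cdh17* was at 0, 0.048 and 0.039 CPM in WT livers and at 0.467, 0.602 and 0.094 CPM in Themis-KO livers. *Tff3*, a trefoil peptide of mucous cells and the gene DESeq2 called, was at 1.42, 0.672 and 0.789 CPM in WT and at 0.382, 0.043 and 0.189 CPM in Themis-KO, so it passed the filter only through WT livers. *Cdx2*, *Muc2*, *Upk1a*, *Cdh17* and *Tff3* were picked with their values in view. Like *Krt20*, *Cdh17* was higher in each Themis-KO liver than in any WT liver. Its lowest Themis-KO value was in liver 3, where *Krt20* was high. Without the filter on low counts *Cdh17* was called (edgeR adjusted p = 0.0297), at very low levels.

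Keratin filaments are anchored at cell junctions by desmosomal proteins and cytolinkers. Of 15 such genes, all tested, 3 rose, beside 4.97% of all genes tested, and none fell, with a median log2 fold change of 0.26. *Ppl* (periplakin), a plakin that binds *Krt8* and vimentin, rose from 35.1, 32.8 and 47.3 CPM to 150, 164 and 58.9 CPM (log2 fold change 1.69, SE 0.35, edgeR adjusted p = 0.0345). Its profile had the shape of those of *Krt8* and *Krt18*, with Themis-KO livers 1 and 2 far above WT and liver 3 just above it. Desmoplakin (*Dsp*), the plakin that ties keratins to desmosomes, rose from 73.8, 90.4 and 88.5 CPM to 193, 152 and 111 CPM (log2 fold change 0.85, SE 0.19, edgeR adjusted p = 0.0398). Plakophilin 3 (*Pkp3*), a desmosomal plaque protein, rose from 0.734, 0.912 and 0.750 CPM to 1.70, 1.33 and 1.70 CPM (log2 fold change 0.98, SE 0.25, edgeR adjusted p = 0.0491). The most abundant other members were *Dst* and *Plec*, giant cytolinkers, at 147 to 180 and 108 to 137 CPM in WT and at 150 to 210 and 96.1 to 197 CPM in Themis-KO, with overlapping groups. *Pkp3* was as high in Themis-KO liver 3 as in liver 1 and so did not share the profile of *Krt8*. When 1 liver was left out, *Ppl* and *Dsp* were called only in the fit without Themis-KO liver 3 and *Pkp3* in none. *Pkp3* was also not called with RLE or upper quartile scaling, without the filter or by DESeq2, where its adjusted p was between 0.0506 and 0.0616, so that 2 genes of the list were called there.

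**Figure D4:**
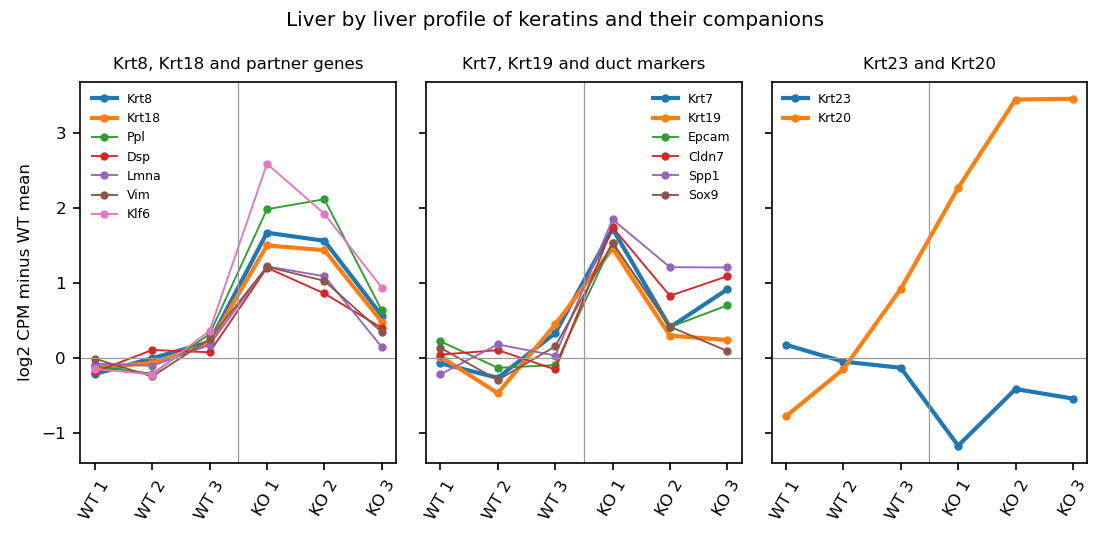
log2 CPM (prior count 2) minus the WT mean (vertical axis) in each of the 6 livers (horizontal axis) for keratins (thick lines) and genes of the lists (thin lines); lines join the values of a gene and imply no order of livers. In the left panel Themis-KO livers 1 and 2 are high and liver 3 is nearest to WT, in the middle panel Themis-KO liver 1 is highest, and on the right Krt20 is highest in Themis-KO livers 2 and 3 (3.44 and 3.45).

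Of 8 tested genes for other intermediate filaments 1 rose and none fell (median log2 fold change 0.18). A call for 1 of 8 genes is too few to set against the 4.97% of all genes called higher. Vimentin (*Vim*), the filament of mesenchymal cells, rose from 32.4, 27.5 and 38.8 CPM to 75.8, 66.5 and 41.5 CPM (log2 fold change 0.90, SE 0.22, edgeR adjusted p = 0.0480). *Lmna*, the nuclear lamin A/C gene, was at 71.4, 69.9 and 85.0 CPM in WT and at 175, 160 and 83.3 CPM in Themis-KO (log2 fold change 0.89, SE 0.25, edgeR adjusted p = 0.0641). In Themis-KO liver 3 both were again close to WT, and with 1 liver left out *Vim* was called only without that liver. *Lmnb2*, a B-type lamin, was at 20.0 to 20.8 CPM in WT and at 15.9 to 18.3 CPM in Themis-KO (log2 fold change −0.28, SE 0.09, edgeR adjusted p = 0.0933).

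Of 14 genes for proteins that bind, crosslink or share aggregates with keratins 1 rose and none fell (median log2 fold change 0.21), a share near the 4.97% of all genes called higher. *Tgm2*, the transglutaminase that crosslinks *Krt8* in Mallory-Denk bodies, rose from 232, 214 and 271 CPM to 449, 466 and 288 CPM (log2 fold change 0.75, SE 0.19, edgeR adjusted p = 0.0491). *Sqstm1*, which encodes p62, the other main protein of these bodies, was at 414, 408 and 465 CPM in WT and at 1057, 878 and 445 CPM in Themis-KO (log2 fold change 0.89, SE 0.28, edgeR adjusted p = 0.0791). Its level in Themis-KO liver 3 lay within the WT range. With 1 liver left out, *Tgm2* was called only without Themis-KO liver 3. *Hspa8*, a constitutive chaperone, was at 900 to 1247 CPM in WT and 1110 to 1540 CPM in Themis-KO.

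Of 11 tested transcription factors of epithelia 1 rose and none fell (median log2 fold change 0.81). A single call is too few to set against the 4.97% of all genes called higher. Without overlap between groups, 6 of the 11 were higher, beside 17.7% of all genes tested. These 6 include the 2 that passed the filter only through Themis-KO livers. *Klf6*, an injury-induced Krüppel-like factor, rose from 23.4, 22.2 and 33.3 CPM to 156, 98.1 and 49.6 CPM (log2 fold change 1.94, SE 0.38, edgeR adjusted p = 0.0304), with Themis-KO liver 3 again nearest to WT. With 1 liver left out, *Klf6* was called only without WT liver 3 or without Themis-KO liver 3. *Cebpb*, a factor of the acute phase response and the most abundant of the list, was at 343 to 383 CPM in WT and 421 to 476 CPM in Themis-KO (log2 fold change 0.33, SE 0.09, edgeR adjusted p = 0.0599). Some genes are in more than 1 list, so their counts are not independent.

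Across all genes tested, the profiles most like each keratin were taken by Pearson r of log2 CPM over the 6 livers, which include both genotypes, as a description. For *Krt8* they were *Krt18*, *Abi1* and *Mpp6*, and for *Krt18* they were *Abca5*, *Krt8* and *Mapre1* (r = 0.998 for all). The rank of a profile does not reflect its size: the log2 fold change was 1.10 for *Abca5*, a lysosomal membrane transporter, but 0.21 for *Abi1*, an actin regulator, and 0.34 for *Mapre1*, which binds microtubule ends. For *Krt7* they were *Slc9a5*, *Cd24a* and *Tmem45a* (r = 0.988 to 0.992), of which *Cd24a* is in the cholangiocyte list (6.70, 5.66 and 7.10 CPM in WT and 17.4, 8.04 and 10.4 CPM in Themis-KO).

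For *Krt19* the closest profiles were *Septin5*, *Samd10* and *Ppie* (r = 0.986 to 0.997), none of them in the duct list. For *Krt23* they were *Srsf1*, *Gm42944* and *Pot1a* (r = 0.992 to 0.993). For *Krt20* they were *Cebpd*, an acute phase transcription factor, *Prkar2b*, a regulatory subunit of protein kinase A, and *Rras*, a small GTPase (r = 0.992 to 0.997). *Cebpd* was at 18.1, 19.4 and 23.4 CPM in WT and at 26.4, 30.9 and 30.9 CPM in Themis-KO, with WT livers in the same order as for *Krt20* and with Themis-KO livers 2 and 3 near equal and above liver 1. With a prior count of 0.5 in place of 2 the nearest profiles of *Krt20* became *Zmynd15*, *Atp6v0d2* and *Gltp*, so that ranking rests on how its few WT counts are treated.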

How the data were processed

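Liver RNA of 3 WT and 3 Themis-KO mice was compared, with groups and replicate numbers from the sample labels. The authors isolated poly(A) RNA, trimmed reads (cutadapt 2.3, per the submitters' processing notes), mapped them to GRCm38 with STAR 2.7.8a and deposited estimated counts per gene from RSEM 1.3.3. The deposited estimated counts are whole numbers without normalization. RSEM divides reads among similar genes, so values of very similar genes are linked. The strand setting and annotation release are not given in the sources used here.

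The analysis used edgeR 4.0.16 and limma 3.58.1 under R 4.3.3. filterByExpr kept 14496 of 25403 genes, libraries were scaled by TMM, and glmQLFit and glmQLFTest compared the groups without covariates, with Benjamini-Hochberg adjustment over all genes tested and a threshold of 0.05. Each SE is the size of the log2 fold change over the square root of F. The precision of the low keratins is limited by their counts. No 2 libraries agreed within sampling noise (lowest chi-square per degree of freedom 9.12). Genomic positions and lengths are from GENCODE vM21 (25353 genes matched), with the principal transcript as length.

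The keratins and all 8 gene lists, together with the tests, were chosen with earlier results of these data known. Named genes are the 6 keratins, *Themis*, each list's called genes (up to 4 per direction) with up to 2 further genes of highest mean CPM, and the 3 closest profiles per keratin; exceptions are stated, and a few genes within this rule are not named here. Alternatives were RLE, upper quartile or total count scaling, no filter on low counts, a minimum of 10 per liver, DESeq2 1.42.0, a block for the replicate number, each liver left out, and WT liver 3 as the only WT liver. Fits were tested on simulated counts. The simulation changed only genes with higher mean counts than *Krt20* and *Krt7*, so it does not cover keratins as low as these. Figures were drawn with matplotlib 3.10.9.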

Additional observations from a re-analysis of the deposited data

How the results depend on the processing

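No keratin difference changed sign under the 14 alternatives (13 for *Krt20*, which could not be fitted with at least 10 counts in every liver). Calls are given in the order keratins, other keratins, cholangiocyte, hepatocyte, gut and urothelial, desmosome, other filament, keratin-binding and transcription factor lists, whose counts with all 6 livers were 3, 0, 2, 3, 0, 3, 1, 1 and 1. They moved as follows, and the desmosome list had 2 calls with RLE, upper quartile, no filter or DESeq2. Total counts alone gave 1 other keratin, 5 cholangiocyte, 3 other filament, 2 keratin-binding and 4 transcription factor genes, and shifted the median of all genes from 0.0095 to 0.147. No filter gave 2179 genes over the whole table in place of 1321, 5 of the 6 keratins, 1 other keratin, 5 cholangiocyte, 2 gut, 3 other filament, 3 keratin-binding and 2 transcription factor genes. DESeq2 gave 2369 genes, 5 keratins, 1 other keratin, 5 cholangiocyte, 7 hepatocyte, 1 gut, 3 other filament, 3 keratin-binding and 3 transcription factor genes. With WT liver 3 as the only WT liver (1 sample, assumed to vary like the Themis-KO livers) 9 genes, 0 keratins and 0 genes of the cholangiocyte, hepatocyte, desmosome, other filament, keratin-binding and transcription factor lists were called, and the log2 fold change of *Krt20* was 2.61. When 1 liver was left out, counts ranged from 20 to 4267 over the whole table, 0 to 4 for keratins, 0 to 1 for other keratins, 0 to 7 for cholangiocyte, 0 to 5 for hepatocyte, 0 to 3 for gut, 0 to 6 for desmosome, 0 to 4 for other filament, 0 to 5 for keratin-binding and 0 to 6 for transcription factor genes, each highest without Themis-KO liver 3, and the *Krt20* log2 fold change ranged from 3.22 to 5.42. The mean ratio of *Krt8* to *Krt18* over the 6 livers was 1.45 per length and 1.98 in raw counts. The causes of these moves were not tested.

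When the fit held a block for the replicate number, 62 genes over the whole table, 0 keratins and 0 genes of the cholangiocyte, hepatocyte, desmosome, other filament, keratin-binding and transcription factor lists were called, with 17 higher and 45 lower over the whole table. Same-numbered livers correlated at 0.000277, −0.241 and −0.157 in their deviations from the group means (mean −0.132, against 0.066 for different numbers). The paper mentions 3 pairs of livers, and the labels do not say whether equal numbers mark a pair. With 3 livers per group these correlations cannot settle that.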
